A study of Mus musculus with 2 samples.

Results

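The genes of the major histocompatibility complex (MHC) class I and class II pathways were described in the heart of the mouse at postnatal day 10. Members were the genes whose symbol begins with H2-, the prefix of the mouse MHC, together with B2m, Cd74, Ciita, Nlrc5, Tap1, Tap2 and Tapbp, provided that at least 1 of their transcripts is annotated as protein_coding. This gave 44 genes of 55536 annotated genes, 21901 of which have such a transcript. A further 8 H2- entries had none and were left out. Total RNA was sequenced from whole heart tissue of female B6CASTF1/J mice aged 10 days, the first-generation cross of C57BL/6J with CAST/EiJ per the strain name. There was 1 group of 2 libraries, replicates 1 and 2, which the labels give as biological replicates under a single donor record. No treatment, mutant or second genotype was included, so no contrast between conditions exists and the only difference that can be tested is the one between these libraries.

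MHC class I molecules consist of a heavy chain and a light chain and show peptides from inside the cell to CD8+ T cells on nearly all nucleated cells. Their peptides are cut by the proteasome, carried into the endoplasmic reticulum by the TAP transporter and fitted onto the heavy chain with the help of tapasin. Class II molecules are pairs of an alpha and a beta chain, are made mainly by dendritic cells, B cells, macrophages and thymic epithelium, and show peptides from the endocytic route to CD4+ T cells. The heart holds resident macrophages, endothelial cells and few lymphocytes beside the cardiomyocytes, which are known for low class I levels.

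Replicate 1 held 40403041 and replicate 2 held 39849597 expected counts, the estimated number of reads per gene in which a read that matches several genes is shared between them. The members together held 0.0222% and 0.0220% of the counts on genes. Levels are in TPM, an abundance per length relative to all transcripts of the library, from the deposited gene tables whose column headers are those of RSEM, and the mean ± SD is over the libraries (n = 2). The labelled tissue was checked against 6 cardiomyocyte genes, all of which were above 1 TPM in both libraries, with Myh6, the alpha myosin heavy chain, at 8417 and 9608 TPM. In whole tissue, fewer cells of a type and less RNA per cell cannot be told apart. Reads were assigned on the C57BL/6J reference, so alleles of the parents were not told apart, and whether reads with CAST/EiJ variants were lost was not tested.

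Of the 44 members, 17 were detected at 1 TPM or more in both libraries (38.6%), against 53.5% of the 21901 genes with a protein_coding transcript. These 17 carried 98.0% of the members' summed TPM in replicate 1 and 98.3% in replicate 2. The median over all 44 members was 0.365 and 0.27 TPM, against 1.88 and 1.85 TPM over all genes with a protein_coding transcript. Of the other 27 members, 9 held no count in either library and 18 held some, with mean levels between 0.005 and 0.83 TPM. H2-Ea-ps, named here after its values were seen, lay just under the level of detection with 1.01 and 0.65 TPM, and H2-T24, with 1.34 and 1.27 TPM, lay just over it.

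**Figure D1:**
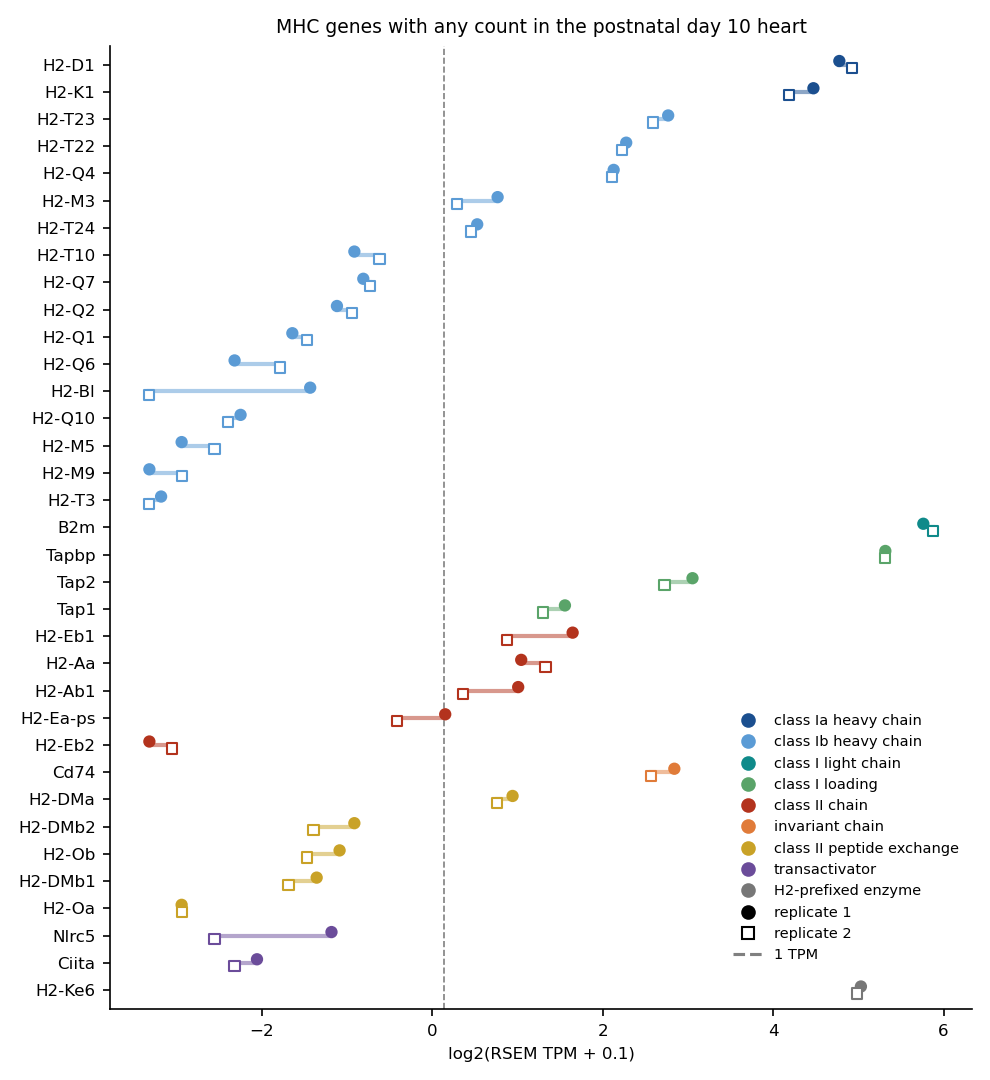
Level of the 35 members with any count, as log2(RSEM TPM + 0.1), in replicate 1 (filled circles) and replicate 2 (open squares), coloured by role, with 1 TPM as a dashed line. B2m, Tapbp, H2-Ke6, H2-D1 and H2-K1 stand above 18 TPM in both libraries, most class Ib heavy chains lie below 1 TPM, and the detected class II chains lie between 1.18 and 3.03 TPM.

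The class I light chain was the most abundant member. B2m, beta-2 microglobulin, on chr2:122147686-122153083 (mm10, plus strand), had 54.2 TPM in replicate 1 and 58.6 TPM in replicate 2 (56.4 ± 3.09). It ranked 1209 of 21901 genes with a protein_coding transcript by mean TPM. Both libraries lay well above every heavy chain.

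The classical heavy chains H2-D1 and H2-K1, which present peptides to CD8+ T cells, held most of the heavy chain RNA. H2-D1 (chr17:35262730-35267499, plus strand) had 27.3 and 30.2 TPM (28.8 ± 2.05) on 1546 and 1658 expected counts. H2-K1 (chr17:33996017-34000347, minus strand) had 22.1 and 18.1 TPM (20.1 ± 2.84) on 607 and 558 expected counts. H2-D1 was the higher of the 2 in each library, but the log2 ratio of H2-D1 over H2-K1 was 0.52 ± 0.31 and did not pass the rule that the mean exceed 3 SD with the same sign in both libraries. On protein_coding transcripts alone, H2-D1 had 25.3 and 27.9 TPM and H2-K1 had 9.87 and 10.8 TPM, and the log2 ratio was then 1.36 ± 0.01 and passed it. H2-D1 and H2-K1 together made up 70.5% and 71.6% of the summed TPM of the 26 heavy chain genes. B2m was 2.81-fold above H2-K1 over all transcripts (log2 1.49 ± 0.28), against a log2 ratio of 2.44 ± 0.01 on protein_coding transcripts alone.

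Among the 24 class Ib heavy chains, which have narrower or unconventional roles, 5 were detected. H2-T23, which encodes Qa-1 and shows leader peptides of other class I chains to receptors of natural killer cells, had 6.71 and 5.91 TPM (6.31 ± 0.566). H2-T22, a ligand of gamma-delta T cell receptors, had 4.74 and 4.57 TPM (4.66 ± 0.120), and H2-Q4 had 4.27 and 4.20 TPM (4.24 ± 0.0495). These 3 genes were below the classical chains in both libraries: over all transcripts H2-T23 was 3.14-fold and H2-Q4 was 4.63-fold below H2-K1, a log2 ratio of −1.65 and −2.21, against −0.79 and −1.63 on protein_coding transcripts alone. H2-M3, which shows peptides with a formylated start such as those of bacteria, had 1.60 and 1.12 TPM (1.36 ± 0.339) and was 13.9-fold below H2-K1 over all transcripts (log2 −3.80), against −2.86 on protein_coding transcripts alone. H2-T24 had 1.34 and 1.27 TPM (1.31 ± 0.0495). By region of the complex, the 5 H2-T genes among the members summed to 13.2 and 12.3 TPM, the 6 H2-Q genes to 5.53 and 5.66 TPM and the 12 H2-M genes to 1.63 and 1.22 TPM. The 9 members with no count in either library were all H2-M genes (H2-M1, H2-M2, H2-M11 and 6 H2-M10 genes). A count of 0 allows up to 3 counts, which is 0.0747 CPM (counts relative to library size) in replicate 1 and 0.0757 CPM in replicate 2, counting error only.

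The heavy chains are close copies of each other, and this limits how well their reads can be told apart. The coding sequences of H2-K1 and H2-D1 were identical at 92.0% of 1074 aligned bases, those of H2-T22 and H2-T10 at 96.9% and those of H2-Q6 and H2-Q7 at 94.3%. To show where such genes can and cannot be told apart, 579 windows of 60 bases of coding sequence that align without gaps in 5 heavy chains were compared with H2-K1. The window most alike lay in exon 4 of H2-K1, at chr17:33997374-33997433 of mm10 (minus strand), with its partners at chr17:35265911-35265970 (plus), chr17:35382985-35383044 (plus), chr17:35442394-35442453 (plus) and chr17:36030911-36030970 (minus). Exon 4 encodes the membrane-near domain that binds beta-2 microglobulin and CD8. Capitals mark bases that differ from H2-K1, and only H2-Q4 has one.
H2-K1: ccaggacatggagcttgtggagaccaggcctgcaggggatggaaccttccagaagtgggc
H2-D1: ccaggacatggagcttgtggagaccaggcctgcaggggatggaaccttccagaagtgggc
H2-Q4: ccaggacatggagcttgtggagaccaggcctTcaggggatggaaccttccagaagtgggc
H2-Q7: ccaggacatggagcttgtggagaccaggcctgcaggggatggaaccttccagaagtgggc
H2-T23: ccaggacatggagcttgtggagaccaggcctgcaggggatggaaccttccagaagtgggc

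The window least alike lay in exon 3, which encodes the second domain of the peptide groove, at chr17:33999308-33999367 (minus) in H2-K1, chr17:35264018-35264077 (plus) in H2-D1, chr17:35380540-35380599 (plus) in H2-Q4, chr17:35440088-35440147 (plus) in H2-Q7 and chr17:36031675-36031734 (minus) in H2-T23. Here 49 of 60 bases were shared with H2-K1 in H2-D1, H2-Q4 and H2-Q7 and 43 of 60 in H2-T23, and capitals again mark the differences.
H2-K1: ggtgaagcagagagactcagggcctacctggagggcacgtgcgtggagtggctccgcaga
H2-D1: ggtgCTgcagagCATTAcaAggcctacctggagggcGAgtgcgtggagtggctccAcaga
H2-Q4: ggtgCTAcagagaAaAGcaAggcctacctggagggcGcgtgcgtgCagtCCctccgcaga
H2-Q7: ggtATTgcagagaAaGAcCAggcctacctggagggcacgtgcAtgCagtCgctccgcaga
H2-T23: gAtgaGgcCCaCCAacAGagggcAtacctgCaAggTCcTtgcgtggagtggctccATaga

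Over whole transcripts, the median share of 31-mers (stretches of 31 bases) found in no other gene was 93.5% for the members, against 99.5% for all genes with a protein_coding transcript. It was 77.2% for H2-K1, 73.3% for H2-D1, 75.5% for H2-T23, 61.6% for H2-Q4 and 49.0% for H2-T22, which shares 47.2% of its 31-mers with H2-T10. Values of single heavy chains are therefore less certain than their sums. B2m, at 100%, shares none.

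The genes that load class I molecules were detected as well, at unequal levels. Tapbp, which encodes tapasin, the bridge between TAP and the heavy chain, had 39.8 and 39.7 TPM (39.7 ± 0.0636). This was the second highest level among the members by RSEM. By the second method Tapbp had 35.6 and 37.7 TPM, below H2-Ke6 with 51.3 and 48.6 TPM. Tap2, a subunit of the TAP transporter, had 8.20 and 6.51 TPM (7.36 ± 1.20), and Tap1, its partner subunit, had 2.84 and 2.36 TPM (2.60 ± 0.339). Tap1 was 2.75-fold below Tap2 over all transcripts (log2 −1.46 ± 0.05), but this order did not hold on protein_coding transcripts alone (log2 0.44 ± 0.72). There Tap1 had 2.57 and 2.21 TPM and Tap2 had 2.70 and 1.10 TPM, so that Tap1 was below Tap2 in replicate 1 and above it in replicate 2. Tapbp was 14.8-fold above Tap1. Tapbpl, a peptide editor related to tapasin and not a member, had 1.79 and 1.88 TPM and was 20.6-fold below Tapbp.

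The class II chains were detected at low levels. H2-Eb1, the beta chain of the I-E molecule, had 3.03 and 1.74 TPM (2.39 ± 0.912) on 83 and 54 counts. H2-Aa, the alpha chain of I-A, had 1.96 and 2.41 TPM (2.19 ± 0.318) on 63 and 71 counts, and its partner H2-Ab1 had 1.91 and 1.18 TPM (1.55 ± 0.516) on 57 and 37 counts. The order of these 3 chains differed between the libraries: H2-Eb1 was the highest in replicate 1 and H2-Aa in replicate 2. H2-Ab1 over H2-Aa did not pass the rule (log2 −0.50 ± 0.66). H2-Eb1 over H2-Ab1 did over all transcripts (log2 0.58 ± 0.08), but not by the second method (0.10 ± 0.19), and on protein_coding transcripts alone H2-Eb1 was below H2-Ab1 in both libraries without passing the rule (−1.78 ± 0.63). H2-Ea-ps, the I-E alpha gene that C57BL/6 mice are known not to transcribe, had 26 and 15 counts, and from which parental chromosome they came was not told apart. H2-Eb2 had 0 and 2 counts.

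The invariant chain exceeded the class II chains. Cd74, which fills the class II groove until the molecule reaches the endosome and which lies on chr18:60803848-60812652 (plus strand), had 7.06 and 5.82 TPM (6.44 ± 0.877) on 255 and 205 counts. It was 2.86-fold above H2-Aa (log2 1.52 ± 0.40), which did not pass the rule by the second method (1.32 ± 0.64). It was 3.09-fold below H2-K1 (log2 −1.63 ± 0.01), which did not pass the rule on protein_coding transcripts alone (−0.68 ± 0.29). The summed TPM of H2-Aa, H2-Ab1, H2-Eb1 and Cd74 was 14.0 and 11.2, against 104 and 107 for H2-K1, H2-D1 and B2m. This class II sum was 8.37-fold below the class I sum, a log2 ratio of −3.07 ± 0.26 over the libraries. Both libraries gave the same order, at −2.88 and −3.25.

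Of the 5 genes for peptide exchange on class II, only H2-DMa was detected. H2-DMa, the alpha chain of DM, which swaps the invariant chain remnant for other peptides, had 1.82 and 1.59 TPM (1.71 ± 0.163). It was 5.18-fold above H2-DMb1, one of its beta chains, which had 0.29 and 0.21 TPM on 9.01 and 7.83 expected counts. The other beta chain, H2-DMb2, had 0.43 and 0.28 TPM, and its coding sequence is 95.9% identical to that of H2-DMb1, so the reads of this pair are hard to part. H2-DMb2 was above H2-DMb1 in both libraries (log2 0.37 ± 0.11), an order that was lost by the second method, where the libraries had opposite signs (−0.33 ± 0.63). H2-Oa and H2-Ob encode DO, which restrains DM and is typical of B cells. H2-Oa had 1 count in each library and H2-Ob had 21 and 17 counts, with 0.37 and 0.26 TPM.

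Neither transactivator reached 1 TPM. Ciita, the master activator of class II genes, had 0.14 and 0.10 TPM on 18 and 15 counts. Nlrc5, its counterpart for class I genes, had 17 and 13 counts, but these gave 0.34 TPM in replicate 1 and 0.07 TPM in replicate 2, with an effective length in the deposited tables of 1579 bases in replicate 1 and 6104 bases in replicate 2. Ciita over Nlrc5 had opposite signs in the libraries (log2 −0.87 and 0.23), while by the second method Ciita was higher in both (0.71 ± 0.20).

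H2-Ke6 carries the prefix but encodes a hydroxysteroid dehydrogenase and no MHC protein. It had 32.6 and 31.5 TPM (32.0 ± 0.778), and 51.3 and 48.6 TPM by the second method. Of its 31-mers 76.1% are also found in Gm20427, an overlapping transcript model, and H2-Ke6 had 730 and 710 expected counts, against 140 and 63.5 for Gm20427, so the H2-Ke6 value rests on how reads were shared.

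**Figure D2:**
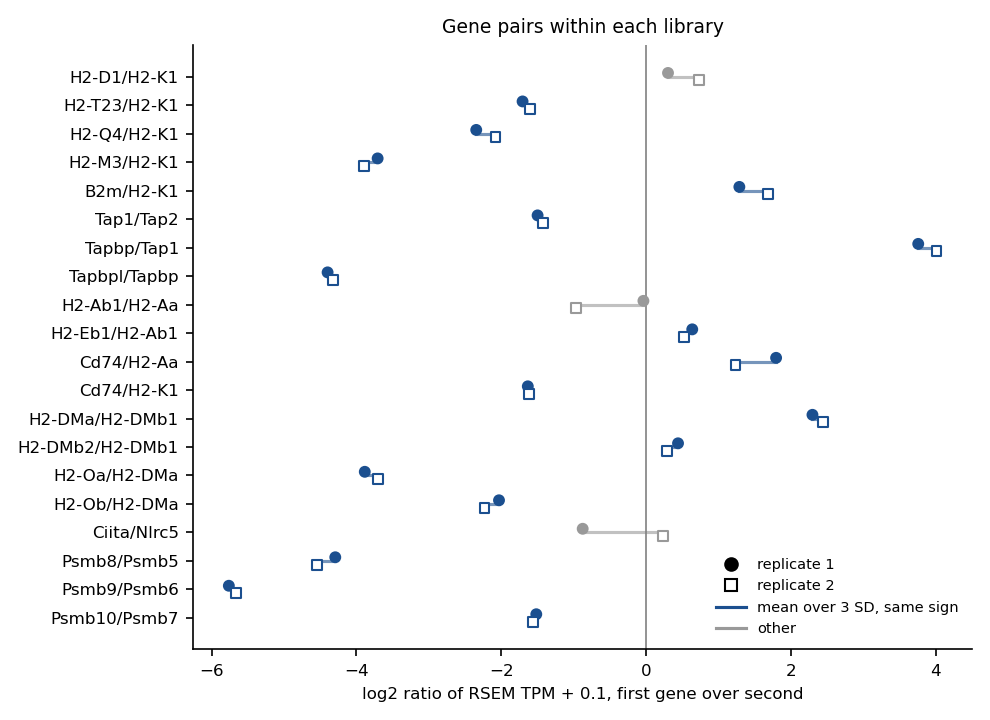
Log2 ratio of RSEM TPM + 0.1 of the first gene over the second within each library, for 20 gene pairs, replicate 1 as filled circles and replicate 2 as open squares. The 17 pairs in blue have the same sign in both libraries and a mean over 3 SD, and the 3 in grey (H2-D1/H2-K1, H2-Ab1/H2-Aa and Ciita/Nlrc5) do not.

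Of 20 gene pairs compared within each library, 17 passed the rule. A set of 2 libraries allows no exact p under 0.5, so the rule is a description of the spread. Among these pairs were the immunoproteasome subunits, which replace the standard catalytic subunits when cells meet interferon and change the peptides made for class I. Psmb8 had 4.15 and 3.63 TPM, against 83.2 and 86.9 TPM for Psmb5, its standard counterpart, and was 21.4-fold lower. Psmb9 had 1.86 and 2.11 TPM, against 106 and 112 TPM for Psmb6, and was 52.4-fold lower. Psmb10 had 35.7 and 37.0 TPM, against 102 and 109 TPM for Psmb7, and was 2.90-fold lower. These folds are over all transcripts, with log2 ratios of −4.42 for Psmb8, −5.71 for Psmb9 and −1.54 for Psmb10. On protein_coding transcripts alone the log2 ratios were −5.13, −5.86 and −2.58.

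Promoters are shown for members whose levels are described above, since CCAAT boxes and NF-kB sites are known parts of MHC promoters. RefSeq promoters (GRCm38.p6) were found for 34 of the 44 members, and the 200 bases before the RefSeq start were searched on both strands. The CCAAT box was searched as CCAAT and the NF-kB site by its consensus, which reads nearly alike on both strands, so that its matches can overlap each other. Of the member promoters, 29 of 34 held CCAAT (85.3%), against 30.0% of all 27025 promoters of the same length. The NF-kB consensus was in 9 of 34 (26.5%), against 5.84% of all. Many of the members are close copies of each other, so their promoters are not independent and these shares were not tested. Of the 13 detected members with a promoter, 11 held CCAAT and 6 the NF-kB consensus. The CCAAT match did not follow the level: the promoters of the 6 H2-M10 genes, which had no count, held it too. The windows below lie at chr2:122147487-122147686 (plus strand) for B2m, chr17:34000348-34000547 (minus) for H2-K1, chr17:35262894-35263093 (plus) for H2-D1, chr17:34287824-34288023 (minus) for H2-Aa and chr17:34305667-34305866 (plus) for H2-Eb1. They show the highest class I genes beside 2 class II chains, with the matches of either motif in capitals.
B2m: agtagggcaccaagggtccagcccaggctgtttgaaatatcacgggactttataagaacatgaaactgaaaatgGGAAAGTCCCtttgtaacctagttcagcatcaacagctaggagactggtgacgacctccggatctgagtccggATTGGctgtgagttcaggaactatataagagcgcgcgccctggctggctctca
H2-K1: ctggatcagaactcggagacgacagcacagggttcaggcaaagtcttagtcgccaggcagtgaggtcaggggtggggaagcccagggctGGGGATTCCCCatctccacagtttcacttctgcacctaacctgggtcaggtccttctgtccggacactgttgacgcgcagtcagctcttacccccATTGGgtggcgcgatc
H2-D1: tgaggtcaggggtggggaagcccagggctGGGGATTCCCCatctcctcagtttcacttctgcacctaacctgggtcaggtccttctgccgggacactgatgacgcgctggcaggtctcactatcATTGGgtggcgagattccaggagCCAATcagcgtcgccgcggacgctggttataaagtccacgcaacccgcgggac
H2-Aa: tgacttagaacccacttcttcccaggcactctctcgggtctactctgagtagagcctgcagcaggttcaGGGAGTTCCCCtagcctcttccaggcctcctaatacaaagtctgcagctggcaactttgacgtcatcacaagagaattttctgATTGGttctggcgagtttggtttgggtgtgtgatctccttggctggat
H2-Eb1: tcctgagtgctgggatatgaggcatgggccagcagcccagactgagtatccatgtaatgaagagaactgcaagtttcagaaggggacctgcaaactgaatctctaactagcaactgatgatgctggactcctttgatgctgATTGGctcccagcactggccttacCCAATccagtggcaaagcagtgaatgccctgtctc

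H2-K1 and H2-D1 share a run of 46 bases around the NF-kB match, which no other promoter of the 27025 holds. It starts 140 bases before the start of H2-K1 and 200 bases, the edge of the window, before that of H2-D1. H2-Eb1 holds CCAAT matches alone. A match is a description of the letters in these windows.

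Several members had much of their count on transcripts that are not protein_coding. Tap2 stood out among the detected members: 80.3% and 79.2% of its RSEM counts lay on a retained-intron transcript of 2561 bases, and 48.5% and 57.3% of its counts by the second method. H2-Eb1 had 19.5% and 35.9% of its RSEM counts on protein_coding transcripts, and held 46.0% and 22.8% on retained-intron transcripts. By the second method, its shares were 47.5% and 25.8% on protein_coding and 9.89% and 2.62% on retained-intron transcripts. A transcript of H2-Eb1 annotated as nonsense_mediated_decay held 28.7 and 22.3 RSEM counts, and 34.9 and 40.1 counts by the second method. H2-K1 had 72.6% and 84.8% on protein_coding transcripts, and a retained-intron transcript of 457 bases held 46.7% and 35.0% of the gene's TPM by RSEM and no count by the second method in either library. H2-Q4 had 33.9% and 27.2% of its RSEM counts on retained-intron transcripts. B2m, Cd74, H2-M3 and H2-T24 had all counts on protein_coding transcripts by both methods. B2m and H2-M3 have only 1 annotated transcript each, so their share is fixed by the annotation. Over the 21 members that could be read, the median share of RSEM counts on retained-intron transcripts was 8.62% and 6.47%, against 3.57% and 3.06% over 7839 genes.

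**Figure D3:**
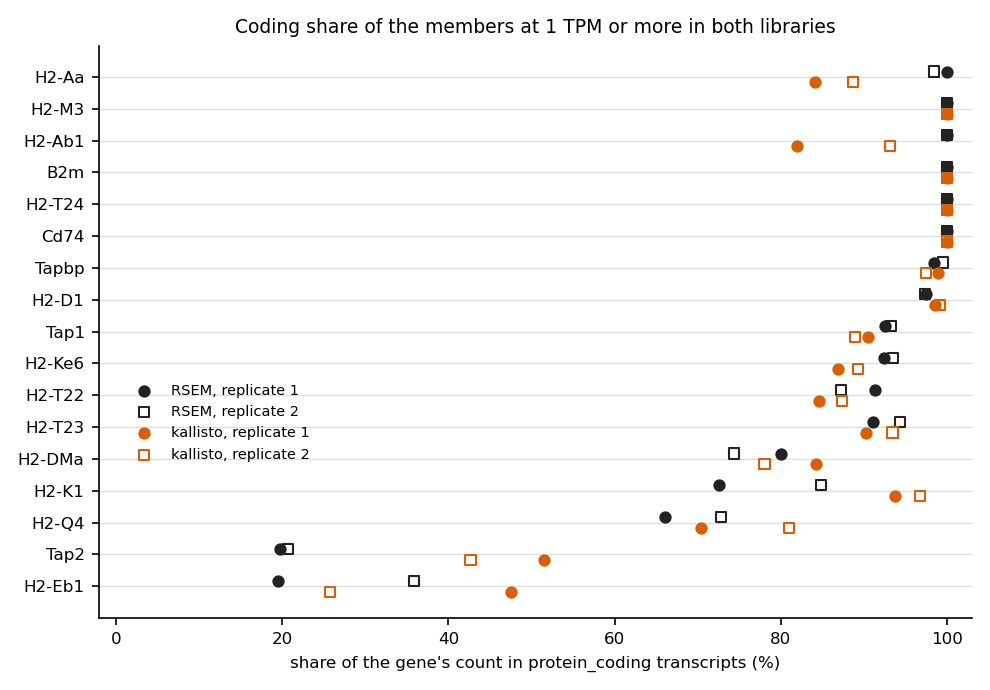
Share of each gene's count on protein_coding transcripts for the 17 members detected in both libraries, by RSEM (black) and kallisto (orange), replicate 1 filled and replicate 2 open. Tap2 and H2-Eb1 lie below 52% by both methods in both libraries, while B2m, Cd74, H2-M3 and H2-T24 stand at 100%. For B2m and H2-M3, with 1 annotated transcript each, this value is fixed by the annotation.

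Levels by the 2 methods were compared for the members and for all genes. The second set of deposited transcript tables, with the column headers of kallisto, was summed per gene and compared with RSEM as log2 of TPM + 0.1. Of 18 members at a mean of 1 TPM or more by either method, 1 was over 2-fold lower by RSEM in both libraries (5.56%), against 5.35% of 14142 genes, and none was over 2-fold higher, against 3.68%. That member was H2-Q7, which encodes Qa-2, with 0.47 and 0.50 TPM by RSEM and 1.43 and 1.47 TPM by kallisto. H2-Q7 shares 22.4% of its 31-mers with H2-Q10 and has 60.9% of its own. The median log2 ratio of RSEM over kallisto was −0.27 and −0.35 for these 18 members, against −0.33 and −0.31 for all genes. Tapbp alone among them was higher by RSEM in both libraries.

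**Figure D4:**
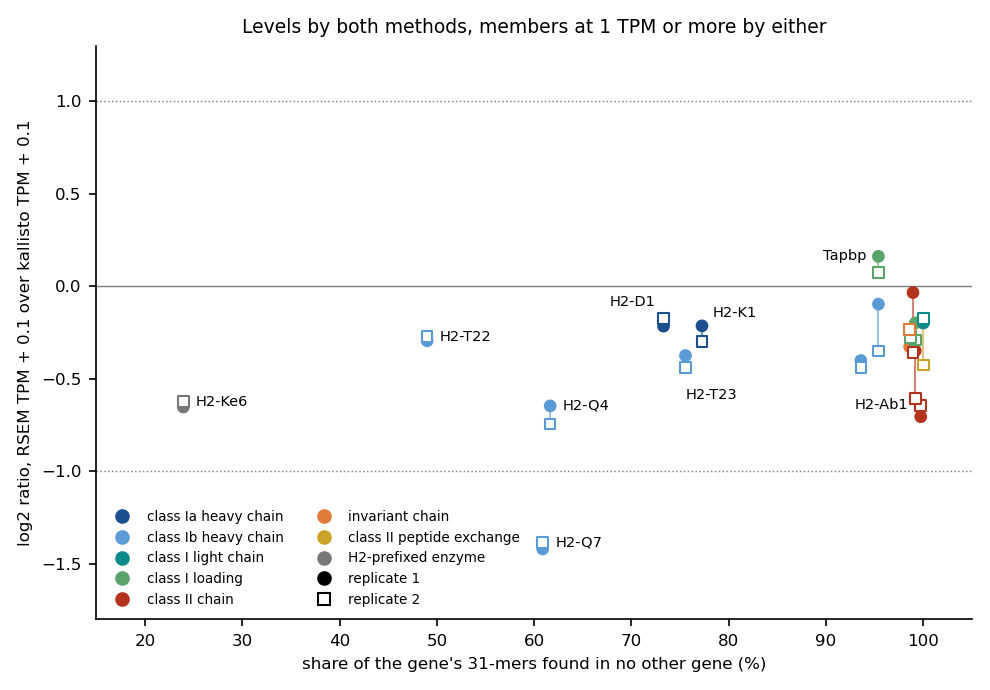
Log2 ratio of RSEM over kallisto TPM (each + 0.1) against the share of the gene's 31-mers found in no other gene, for the 18 members at a mean of 1 TPM or more by either method, replicate 1 as filled circles and replicate 2 as open squares. H2-Q7, at 60.9%, lies below the dotted 2-fold line in both libraries, and the other 17 lie between the lines.

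To ask whether any member differed between the libraries, the rounded counts of each gene were set against each other in a two-sided exact test (conditional binomial), with Benjamini-Hochberg adjustment over the 16517 genes whose counts summed to 20 or more. It compares these libraries, covers counting error only and says nothing of conditions. Of 27 members tested, none was called at an adjusted p under 0.05 with a 2-fold difference, against 1.31% of all genes tested (0.63% higher and 0.678% lower in replicate 2). By unadjusted p under 0.05, 4 members passed, against 27.5%. Passing without a fold depends on the number of counts, for which the members and all genes were not matched. Without the fold, 1 of 27 passed (3.70%), against 17.6% of all genes: H2-D1 was higher in replicate 2, by 0.14 on the log2 scale (95% counting interval 0.040 to 0.24), with an adjusted p of 0.0362 in the exact test. H2-D1 no longer passed with DESeq2 size factors, with plain totals or with no filter on low counts. B2m was 0.12 higher in replicate 2 (0.013 to 0.23), with an adjusted p of 0.122 in the exact test.

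More members had a lower than a higher count in replicate 2, mostly within counting error, and none of the lower ones passed the test. Of the 27 tested, 18 had a lower count ratio in replicate 2 (66.7%), against 49.4% of all genes tested, and the median log2 ratio was −0.08, against 0.0023 for all genes. The number lower was 15 of 27 with kallisto counts, where the median was −0.018, against 0.0057 for all genes. It was 20 of 27 with DESeq2 size factors or with plain totals. In 23 of the 27 the counting interval held 0. The class II chains had a median of −0.58, with H2-Eb1 at −0.58 (−1.10 to −0.07, exact test adjusted p = 0.0983), H2-Ab1 at −0.58 (−1.22 to 0.04), H2-Ea-ps at −0.73 (−1.78 to 0.22) and H2-Aa at 0.21 (−0.30 to 0.73). Cd74 was at −0.27 (−0.55 to −0.0041), with an adjusted p of 0.169 in the exact test. The loading genes Tapbp (log2 0.00050, −0.08 to 0.09) and Tap2 (0.0067, −0.17 to 0.18) had narrow intervals around 0.

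**Figure D5:**
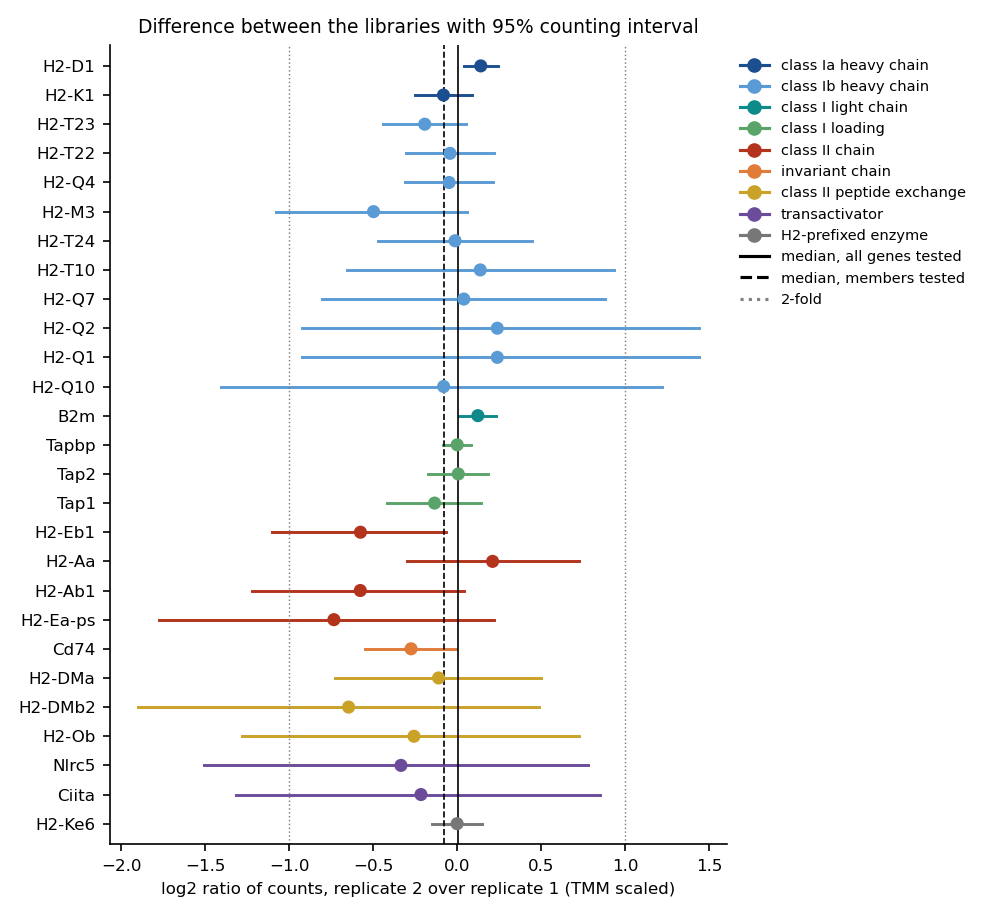
Log2 ratio of TMM-scaled counts, replicate 2 over replicate 1, for the 27 members whose counts summed to 20 or more, with bars for the 95% counting interval, the median of all genes tested (solid line), the median of the members (dashed line) and 2-fold (dotted lines). In 23 of the 27 members the interval holds 0. It lies above 0 for H2-D1 and B2m and below 0 for H2-Eb1 and Cd74.

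Markers of immune cells were read in the same libraries. All 5 B cell markers had a lower ratio in replicate 2, with a summed level of 3.27 TPM in replicate 1 and 1.98 TPM in replicate 2 and 1 of the 5 called. All 5 tested T cell markers of 6 were lower as well, summing to 3.18 TPM in replicate 1 and 2.38 TPM in replicate 2, with none called. Of 12 macrophage markers, 8 were higher in replicate 2 and 4 lower, with sums of 58.6 TPM in replicate 1 and 70.6 TPM in replicate 2. None was called at 2-fold, and 3 (Mrc1, C1qc and Lyve1) were higher in replicate 2 beyond counting error. Of 8 dendritic cell markers 7 stood below 1 TPM, and Zbtb46, which endothelial cells also express, had 6.41 and 6.19 TPM. Of 4 thymic epithelium markers 1 was detected, Ccl25, with 1.98 and 1.63 TPM on 111 and 94 counts. Foxn1, the defining gene of thymic epithelium, held no count in either library. The part of these cells in the levels of the class II genes was not tested.

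None of the remaining genes of the pathway was called at 2-fold between the libraries. The immunoproteasome and its activator were all detected (5 of 5), led by Psme1 with 110 and 108 TPM and Psme2 with 56.4 and 56.9 TPM, which encode the proteasome activator PA28, and none was called. The 5 other class I loading genes were detected, led by the chaperones Calr with 134 and 127 TPM and Canx with 122 and 118 TPM, with none called at 2-fold, although Calr and Canx were beyond counting error in replicate 2 (log2 −0.08 and −0.07). Of 10 genes for class II peptide handling found in the files, 9 were detected and none called, led by the cathepsins Ctsd with 212 and 217 TPM and Ctsb with 150 and 171 TPM, both higher in replicate 2 beyond counting error (log2 0.06 and 0.15). All 7 factors that bind the X and Y boxes of MHC promoters were detected, led by Nfyc with 30.4 and 27.2 TPM and with Rfx5 at 4.07 and 4.20 TPM. Of 9 genes of the interferon gamma route 8 were detected, with Ifngr2 at 53.3 TPM in both libraries, while Ifng itself held no count. The median log2 ratio between the libraries lay between −0.07 and 0.06 in these 5 lists.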

How the data were processed

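The 2 total RNA libraries from hearts of female B6CASTF1/J mice were analysed. Per the labels, 300 ng of RNA and ERCC spike-ins were used for each. Per the text that accompanies the files, they were made on mm10 with the GENCODE M21 annotation. No tool, tool version or read length was given in the sources used here. For each gene and transcript, the authors deposited expected counts and TPM, and for each transcript its percent of the TPM of the gene, under the column headers of RSEM. The authors also deposited estimated counts and TPM per transcript under the column headers of kallisto, which were summed per gene here. TPM is scaled over all entries of each table. RSEM shares reads between copies in proportions estimated in each library, so single copies are less certain than sums. The entries with numeric identifiers (26248) name no gene and were left out together with the spike-ins; they held 3.84 counts in replicate 1 and 2.92 in replicate 2.

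Expected counts were rounded to whole numbers for the exact conditional binomial test, with TMM library sizes from edgeR 4.0.16 (R 4.3.3). Genes whose counts summed to 20 or more were tested and adjusted by Benjamini-Hochberg, and a call needed an adjusted p under 0.05 together with a 2-fold ratio (prior count 0.5). Intervals are exact 95% binomial intervals and cover counting error only, since amplified reads are not independent molecules, and p-values measure only the spread of counting between these libraries. Ratios between genes and between methods used a pseudocount of 0.1, which understates ratios of low genes. With 1 group, no edgeR quasi-likelihood test could be fitted. Alternatives were DESeq2 1.42.0 size factors, plain totals, other filters, folds and pseudocounts, the kallisto values and protein_coding transcripts alone.

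Shared 31-mers and coding alignments came from the GENCODE M21 transcripts and annotation, and promoters from RefSeq (GRCm38.p6). Every member at 1 TPM or more in both libraries, every called member and every member over 2-fold apart between methods was named. Of other lists, at most the 4 highest genes and any called gene were named. Single values of some genes in these lists are not reported here. Genes named beyond that, and the alternatives with protein_coding transcripts alone, with TPM ratios between the libraries and without H2-Ke6, were chosen after the values were seen. The members, pairs and lists were chosen with earlier results of these data known. Python 3.11.15, numpy 2.4.6, pandas 2.3.3, scipy 1.17.1, biopython 1.88 and matplotlib 3.10.9 were used.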

Additional observations from a re-analysis of the deposited data

Results flagged for a closer look

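Of the 8 H2- entries without a protein_coding transcript, which the member rule leaves out, 2 held a signal in both libraries above the limit of 3 counts. H2-K2, next to H2-K1, held 22.7 expected counts in replicate 1 and 30.2 in replicate 2, and 83.4% of its 31-mers are found in no other gene. H2-T-ps held 66.6 and 68.5 expected counts, more than H2-T10, and 51.6% of its 31-mers are found in no other gene, with 12.4% of those of H2-T23 shared with it.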

How the results depend on the processing

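No paired analysis was possible because there is only 1 group. The number of members called at 2-fold stayed at 0 under every alternative. The number beyond counting error, 1 (H2-D1), was 0 with DESeq2 size factors, 0 with plain totals and 0 with no filter on low counts, and 1 with kallisto counts. The median log2 ratio of the members between the libraries, −0.08, was −0.048 with no filter, −0.018 with kallisto counts and −0.18 as a ratio of TPM + 0.1, and stayed within 1.5 times otherwise. The number detected was between 15 and 18 under the alternatives (17 without replicate 1, 18 without replicate 2). The class II over class I ratio stayed between −3.25 and −2.88, the values of the single libraries, under all alternatives. Members over 2-fold apart between the methods were 1 of 18, against 2 of 35 with no filter (H2-Q7 and H2-Q10). They were 4 of 18 at 1.5-fold, and 1 without either replicate. The shares over all genes, in either direction, were 9.02% at 2-fold, 9.85% with no filter and 20.2% at 1.5-fold. Pairs apart numbered between 14 and 17. The mean log2 ratio changed sign on protein_coding transcripts alone for Tap1 over Tap2 (0.44, by replicate 2 alone) and for H2-Eb1 over H2-Ab1 (−1.78, in both libraries), and with kallisto TPM for H2-DMb2 over H2-DMb1 (−0.33, by replicate 1 alone). The cause was not tested. Depth limits the class II chains and the transactivators, which rest on under 100 counts a library.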

Other observations

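Of 7 class I-like genes that lie outside the complex, 5 were detected. These had levels like those of the detected class Ib heavy chains or higher. Of the others, Cd1d2 had 0.19 and 0.16 TPM and Azgp1 held no RSEM count in either library. Fcgrt, the neonatal Fc receptor, which pairs with beta-2 microglobulin, had 26.4 and 28.4 TPM. Hfe, a regulator of iron uptake, had 10.8 and 14.0 TPM, and Cd1d1, which shows lipids to natural killer T cells, had 9.33 TPM in replicate 1 and 5.78 TPM in replicate 2. Mr1, which shows vitamin B metabolites to T cells, had 4.78 and 3.80 TPM. None was called at 2-fold between the libraries, while Cd1d1 was lower in replicate 2 (log2 −0.57, exact test adjusted p = 0.00013) and Hfe higher (log2 0.32, exact test adjusted p = 0.000715).

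Of 22 genes of the interferon response 11 were detected, against 53.5% of all genes with a protein_coding transcript. The median over the 22 genes was 1.09 TPM in replicate 1 and 1.54 TPM in replicate 2, against 1.88 and 1.85 TPM. Among the highest were Bst2 (5.44 and 6.49 TPM), Stat2 (4.65 and 4.71 TPM) and Gbp7 (4.25 and 4.17 TPM). Of the 19 tested, 11 were higher and 8 lower in replicate 2, and none was called at 2-fold. Without the fold, 1 passed as higher and 1 as lower, against 17.6% of all genes tested in either direction.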
